A study of Homo sapiens and Mus musculus with 24 samples.

Results

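The mRNAs described here are those of nuclear genes for the respiratory chain and ATP synthase. They were taken as all protein-coding genes outside the mitochondrial genome whose symbol starts with NDUFA, NDUFB, NDUFC, NDUFS, NDUFV, UQCR, COX4, COX5, COX6, COX7, COX8 or ATP5. This gave 183 genes of 112096 in the files, 94 of 58381 for human and 89 of 53715 for mouse. The prefixes also took in genes that are not subunits, namely 8 NDUFAF assembly factors of complex I in each species, the synthase inhibitor ATP5IF1 in human (its mouse symbol Atpif1 lacks the prefix), Atp5s in mouse, and in human 2 readthrough genes, NDUFC2-KCTD14 and ATP5MF-PTCD1.

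RNA left in the aqueous phase of a phenol extraction was sequenced from UV-irradiated and nonirradiated cells, 3 samples of each, in 4 cell types (24 samples). HepG2 is a human hepatocellular carcinoma line, HEK293 a human embryonic kidney line, Neuro2a a mouse neuroblastoma line, and HippCulture a primary culture of hippocampal neurons from E16.5 C57/BL6NCr mouse embryos, treated with AraC against dividing glia. No other treatment or genotype separated the groups. UV joins RNA to the proteins that touch it, and joined RNA leaves the aqueous phase, so a gene's change reflects how much of its RNA stayed in that phase relative to other genes. Such bonds can also hinder reverse transcription, and the counts do not tell these apart.

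Complexes I, III and IV pass electrons to oxygen and pump protons, and complex V uses the proton gradient to make ATP. Their subunits come from 2 genomes, and the nuclear-encoded ones are translated in the cytoplasm, or at the mitochondrial surface, and imported. Most of these mRNAs are short, abundant and present in every cell type, while a few subunits have paralogs made mainly in muscle, testis or lung.

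Hepatocyte markers were high in HepG2, with all 8 of 8 listed genes reaching 0.5 CPM (a gene's count relative to the scaled library total) and a summed level of 32797 to 35486 CPM in nonirradiated cells, against 0.761 to 2.75 CPM in HEK293. The culture labelled HippCulture carried neuron markers (8 of 8, summing to 2760 to 3000.0 CPM in nonirradiated samples) and also astrocyte markers (5 of 5, 518 to 523 CPM). Lower sums came from markers of the oligodendrocyte lineage (5 of 5, 82.9 to 92.1 CPM), vascular cells and fibroblasts (3 of 4, 30.8 to 31.7 CPM) and microglia (2 of 5, 5.52 to 6.66 CPM). The astrocyte sum was 659 to 685 CPM after UV and the neuron sum 2354 to 2450 CPM, and the part of these cells in the results was not tested. Within the neuron list Map2, Prox1, Gad1 and Snap25 were lower after UV, Slc17a7, Rbfox3 and Syn1 were higher, and Tubb3 overlapped. In bulk samples the number of cells of a type, the RNA per cell and, after UV, its recovery from the aqueous phase cannot be told apart. In Neuro2a 4 of 5 sympathoadrenal markers reached 0.5 CPM, while Gata3 stayed at or below 0.364 CPM. Samples held 36573473 to 53511592 counts in HepG2 and 6910907 to 11188033 in the other cell types, and HepG2 was sequenced on another instrument model, so cell line and instrument cannot be told apart in human comparisons.

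Some promoters of these genes hold short motifs, given here as a description of the genes, and a relation to the UV change was not tested. RefSeq promoters (GRCh38.p14, 250 bases before to 50 after the start) were found for 75 of the 94 human genes, 93 promoters in all. The NRF1 core CGCATGCG was in 11 of them (11.8%) against 2.02% of all 35116 promoters, the YY1 word AAGATGGCG in 11 (11.8%, 1.75% of all) and the ETS word CCGGAAG in 23 (24.7%, 10.3% of all), each searched on both strands. Any of the 3 was in 37 (39.8%, 13.1% of all), so most member promoters held none. The windows below hold the word in capitals on the gene's strand (as written or reverse complement), for genes picked among those with a word, first ATP5ME, NDUFB7 and NDUFA13, which are among the members that rose most in human lines, then NDUFS1, NDUFAF4 and NDUFA5, which did not rise past the threshold in HEK293.

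ATP5ME (chr4:674322-674377, minus strand): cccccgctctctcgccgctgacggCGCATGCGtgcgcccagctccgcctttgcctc
NDUFB7 (chr19:14572060-14572114, minus strand): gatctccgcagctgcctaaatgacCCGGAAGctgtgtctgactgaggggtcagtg
NDUFA13 (chr19:19516191-19516245, plus strand): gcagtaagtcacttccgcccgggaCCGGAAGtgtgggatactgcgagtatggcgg
NDUFS1 (chr2:206159571-206159625, minus strand): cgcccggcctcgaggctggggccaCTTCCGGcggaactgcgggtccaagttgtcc
NDUFAF4 (chr6:96898008-96898062, minus strand): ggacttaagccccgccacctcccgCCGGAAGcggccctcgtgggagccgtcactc
NDUFA5 (chr7:123557944-123557999, minus strand): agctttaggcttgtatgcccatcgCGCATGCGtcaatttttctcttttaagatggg

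ATP5F1E, which rose more than ATP5ME, had no word found. The windows are examples, and no match was used in any test.

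The first question was how these mRNAs behaved upon UV irradiation. In all 4 cell types nearly every member tested was higher in UV-irradiated samples, relative to other genes. In HepG2 85 of 88 rose and 2 fell, where 38.1% of all genes tested rose and 40.7% fell. In HEK293 82 of 87 rose and 1 fell, against 24.2% and 26.4% of all genes. In Neuro2a 84 of 86 rose and 0 fell, against 28.9% and 33% of all genes. In HippCulture 81 of 84 rose and 0 fell, against 26.1% and 25.9%. Calls were made by the quasi-likelihood test of edgeR at an adjusted p (Benjamini-Hochberg, over the whole set of tested genes) under 0.05, after TMM scaling, which sets a trimmed mean of the log ratios between libraries to 0. A gene was tested where nonirradiated samples averaged 0.5 CPM or more.

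The median log2 fold change over the members was 2.04 (4.11-fold) for HepG2 and 1.61 (3.06-fold) for HEK293. It was 1.84 (3.57-fold) for Neuro2a and 1.34 (2.53-fold) for HippCulture, while over all genes it lay between −0.14 and −0.04. Of 80 genes matched by symbol and tested in every cell type, 76 rose in all of them. NDUFA5, NDUFAF4, NDUFAF7 and NDUFS1 were the others.

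**Figure D1:**
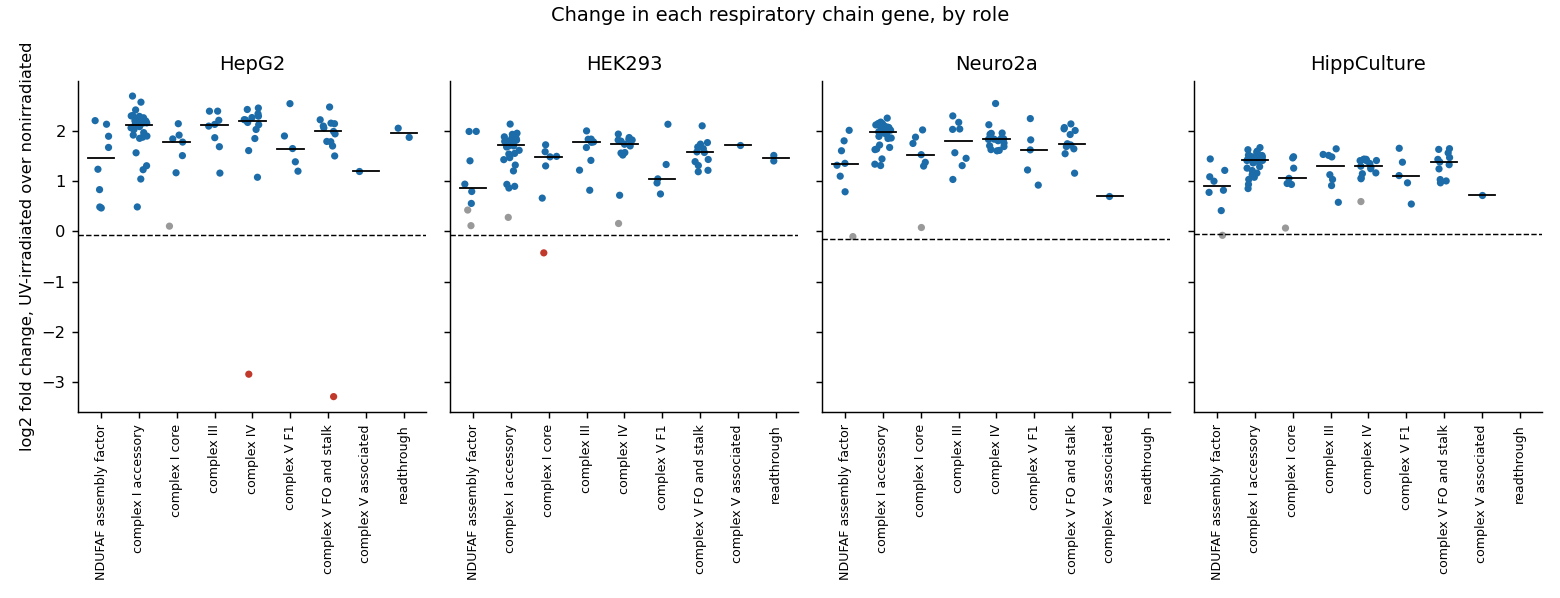
Log2 fold change of each member tested (points), UV-irradiated over nonirradiated, by role and cell type. Blue points rose, red points fell and grey points did not pass the threshold, short bars are medians by role and the dashed line is the median over all genes. The medians over all members lie between 1.34 (HippCulture) and 2.04 (HepG2), COX6B2 and ATP5MGL lie lowest in HepG2, and NDUFS1 lies between −0.43 and 0.10.

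The size of these changes against 0 depended on scaling, and the median over all genes moved with it. Library sizes alone moved the median over all genes by 0.54 to 1.30 log2 units down. It then lay at −1.38, −0.84, −1.32 and −0.59 in HepG2, HEK293, Neuro2a and HippCulture. With this scaling 67 and 68 members rose and 9 and 3 fell in HepG2 and HEK293. In Neuro2a and HippCulture 66 and 72 rose and 4 and 2 fell. The shares of all genes given above were called with TMM scaling and do not apply to these counts, which have no such share beside them. The unscaled share of counts on these genes moved the same way. It was 0.417, 0.55 and 0.568% in nonirradiated HepG2 samples and 0.731 to 0.745% in irradiated ones. In HEK293 it was 0.882 to 0.978% and 1.43 to 1.54%, in Neuro2a 1.11 to 1.2% and 1.44 to 1.61%, and in HippCulture 0.547 to 0.626% and 0.814 to 1.03%. The 2 groups did not overlap in any cell type.

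**Figure D2:**
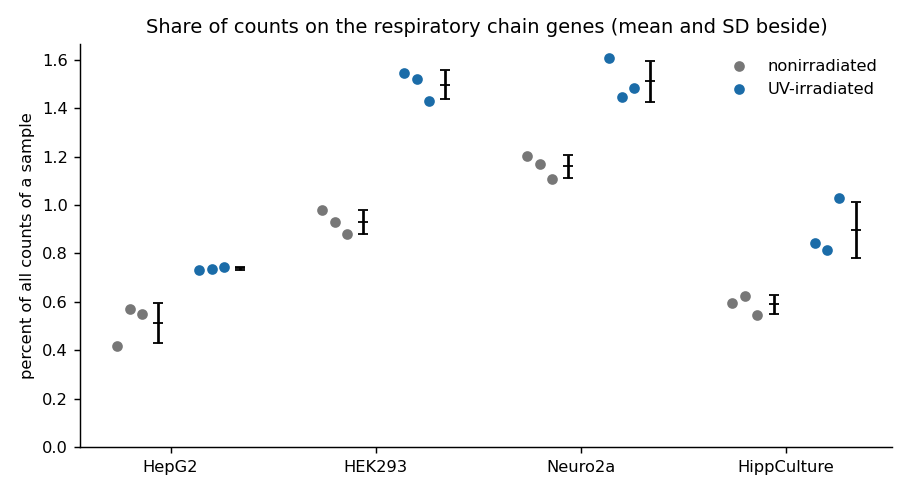
Percent of each sample's counts that fell on the members (points), with mean and SD beside, for nonirradiated (grey) and UV-irradiated (blue) samples. In every cell type the irradiated samples lie above the nonirradiated ones, for example 0.731 to 0.745% against 0.417 to 0.568% in HepG2.

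Complex I takes electrons from NADH. Its 7 core subunits carry the flavin and iron-sulfur clusters, and 6 of 7 rose in each cell type, with median log2 fold changes of 1.78, 1.48, 1.53 and 1.05 in the order HepG2, HEK293, Neuro2a, HippCulture, which is kept below wherever values come in fours. Accessory subunits rose in 30 of 30, 29 of 30, 29 of 29 and 29 of 29, with medians of 2.12, 1.71, 1.98 and 1.42. NDUFB7, an accessory subunit of the membrane arm, rose most of all members in both human lines. Its normalized level was 12.8, 16.8 and 15.8 CPM in nonirradiated and 105.8, 96.8 and 91.3 CPM in irradiated HepG2 samples (log2 fold change 2.69, SE 0.11, adjusted p 2.77e-07). In HEK293 it was 48.3, 43.4 and 36.4 against 218.5, 170.8 and 172.6 CPM (2.13, SE 0.17, adjusted p 3.77e-05). In Neuro2a the values were 60, 59.4 and 53.9 against 262.7, 250.5 and 250.4 CPM, and in HippCulture 21.1, 19.7 and 23.2 against 56.3, 65.1 and 68.9 CPM. The groups were apart in all 4 cell types.

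NDUFA13 (2.57, SE 0.11) came next in HepG2. In mouse the complex I member that rose most was Ndufa3 in Neuro2a (2.25, SE 0.11) and Ndufs6 in HippCulture (1.67, SE 0.12), both accessory subunits. NDUFS5 had the highest nonirradiated level per length in complex I in both human lines, 65.4 ± 11.9 (SD, n = 3) CPM per kilobase in HepG2 and 185.7 ± 37.6 in HEK293, and rose by 2.26 and 1.88 on the log2 scale. Length here and below is that of all annotated exons of a gene joined. It can far exceed that of a transcript, so ranks per length depend on the annotation and do not name the most abundant mRNA. The highest in mouse were Ndufb9 in Neuro2a (113 ± 2.33) and Ndufc2 in HippCulture (59 ± 2.96).

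NDUFS1, the largest core subunit, was the exception in each cell type. It had 120, 151 and 146 CPM in nonirradiated and 153, 148 and 147 CPM in irradiated HepG2 (log2 fold change 0.10, SE 0.09, adjusted p 0.322), with the groups overlapping. In HEK293 it was 134, 125 and 110 against 89.3, 101.8 and 84.1 CPM (−0.43, SE 0.14, adjusted p 0.0296), a decrease that did not pass without nonirradiated replicate 1 (adjusted p 0.0724), nonirradiated replicate 2 (0.0921) or irradiated replicate 3 (0.129). Ndufs1 changed by 0.08 (SE 0.10) in Neuro2a and 0.07 (SE 0.09) in HippCulture, where nonirradiated samples held 72.4, 63.5 and 72.6 CPM and irradiated ones 68.9, 69.5 and 79.5 CPM. It shares exon bases with EEF1B2, a translation factor gene whose log2 fold changes were 2.35, 1.82, 1.99 and 1.39. Reads in the shared bases were counted for both genes.

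**Figure D3:**
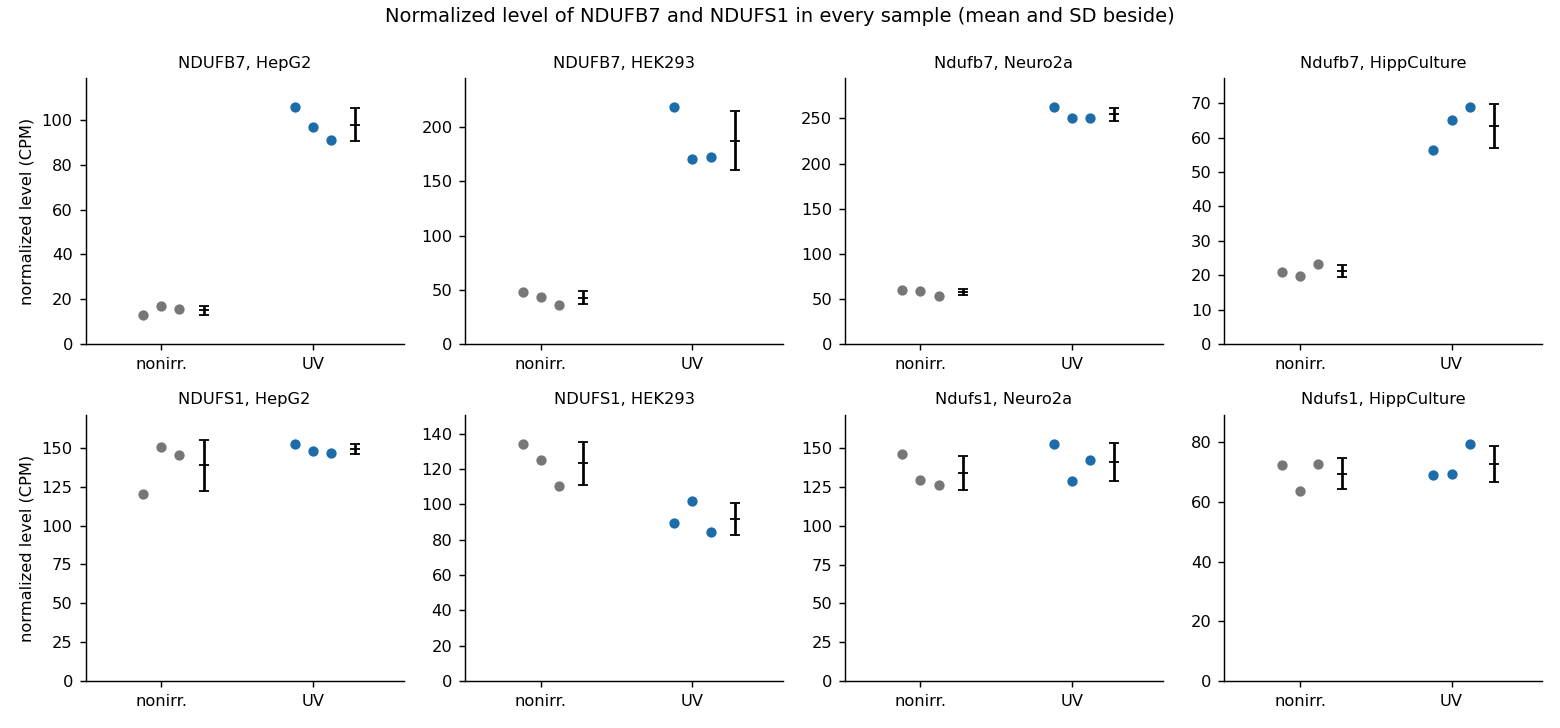
Normalized level in CPM of NDUFB7 (top) and NDUFS1 (bottom) in every sample of each cell type, nonirradiated in grey and UV-irradiated in blue, with mean and SD beside. NDUFB7 groups are apart in every cell type (12.8 to 16.8 against 91.3 to 105.8 CPM in HepG2), whereas those of NDUFS1 overlap except in HEK293.

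Of the NDUFAF assembly factors, which help to build complex I, all 8 rose in HepG2, 6 of 8 in HEK293, 7 of 8 in Neuro2a and 7 of 8 in HippCulture. NDUFAF4 did not pass in HEK293 (40.2, 23.6 and 26.2 against 54, 31.7 and 35.6 CPM, log2 fold change 0.42, SE 0.25), Neuro2a (−0.10, SE 0.13) or HippCulture (−0.08, SE 0.15), with groups overlapping in each. In HEK293, where same-numbered samples deviated together, it rose in the fit with the replicate number as a block (0.43, SE 0.09, adjusted p 3.6e-05). NDUFAF7 gave 0.11 (SE 0.18) in HEK293, Ndufaf7 rose by 0.41 (SE 0.12) in HippCulture, and NDUFA5, an accessory subunit, gave 0.28 (SE 0.12, adjusted p 0.0785) in HEK293, and passed with the block (adjusted p 0.00169).

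Complex III passes electrons from ubiquinol to cytochrome c. All its members tested rose in each cell type, 8 of 8, 9 of 9, 8 of 8 and 8 of 8. UQCRC2, a large core protein, had the lowest log2 fold change of the complex and the small subunit UQCR11 the highest in every cell type, at 1.16 and 2.39 in HepG2 and at 0.58 and 1.64 in HippCulture. Uqcr11 in Neuro2a went from 21.5, 20.2 and 19.5 to 102.9, 99.6 and 98.2 CPM (2.30, SE 0.09). Per length the highest nonirradiated levels were those of UQCRC1 in HepG2 (38.3 ± 2.61 CPM per kilobase), UQCRH in HEK293 (122 ± 5.5), Uqcrb in Neuro2a (86 ± 3.52) and Uqcr11 in HippCulture (75.2 ± 3.28). The annotated exon length was 9715 bases for human UQCRB and 876 for mouse Uqcrb, so their ranks cannot be compared between species.

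Complex IV, cytochrome c oxidase, has ubiquitous subunits and paralogs with narrower use. The ubiquitous COX4I1 rose by 2.03 (SE 0.09), 1.56 (SE 0.13), 1.85 (SE 0.09) and 1.43 (SE 0.09). Highest per length were COX8A in HepG2 (61.3 ± 9.8), COX6B1 in HEK293 (184.5 ± 21), and Cox8a in Neuro2a (214 ± 10.9) and HippCulture (174 ± 15.9). COX6A1, COX6B1, COX7A2, COX7A2L, COX7B, COX8A and NDUFA4, the other ubiquitous ones of these paralogous sets, rose in all 4 cell types, COX7A2L least in both human lines (1.08 and 0.72). COX6B2, known from testis, fell in HepG2 from 2.31, 1.46 and 1.78 to 0.495, 0.0755 and 0.164 CPM (−2.84, SE 0.46, adjusted p 0.00042), at levels near the limit of the test, and changed by −3.88 without irradiated replicate 1. It shares exon bases with another gene. In HEK293 it was not tested, with at most 0.485 CPM.

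In Neuro2a 5 of these narrower paralogs passed the filter and rose, while Cox6b2, Cox8b and Cox8c were below it. Cox7a1 went from 5.75, 10.1 and 8.3 to 23.3, 48.7 and 70.1 CPM (2.54, SE 0.31), Cox4i2 by 2.12 (SE 0.22), Cox7b2 by 1.63 (SE 0.12), Ndufa4l2 by 1.84 (SE 0.32) and Cox6a2 by 1.69 (SE 0.41). In HippCulture Cox6b2 was called higher (1.28, SE 0.47, adjusted p 0.0278), but its groups overlapped and the call was lost with DESeq2 (adjusted p 0.0993), and Cox8b was not past the threshold (0.59, SE 0.60). NDUFA4L2 rose in HepG2 (1.61, SE 0.19) and was at 0.16 (SE 0.29) in HEK293. It shares exon bases with the gene SHMT2 in human and Shmt2 in mouse, and reads there counted for both genes.

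Members below the filter were not tested. These were UQCRHL, COX7B2, COX8C, COX6A2, COX7A1 and COX4I2 in HepG2 (6), COX7B2, COX8C, COX6A2, COX7A1, COX6B2, COX4I2 and ATP5MGL in HEK293 (7), Cox6b2, Cox8b and Cox8c in Neuro2a (3), and Cox4i2, Cox7b2, Cox7a1, Ndufa4l2 and Cox8c in HippCulture (5). COX7B2 and COX6A2 had a count of 0 in every human sample.

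Complex V is the ATP synthase. Its catalytic F1 head rose in 5 of 5 in each cell type, and its FO and stalk subunits in 12 of 13, 12 of 12, 11 of 11 and 11 of 11. The catalytic ATP5F1B had the highest level per length in complex V in HepG2, HEK293 and Neuro2a (Atp5b), with 111 ± 16.8, 282 ± 29.3 and 435 ± 17.5 CPM per kilobase. It went from 213, 283 and 278 to 664, 667 and 689 CPM in HepG2 (1.38, SE 0.11). In HippCulture Atp5a1 was highest per length (169 ± 7.69) and rose by 0.54 (SE 0.09). The small ATP5F1E rose by 2.54 and 2.13 in the human lines and Atp5e by 1.65 in HippCulture, and Atp5k by 1.64 in HippCulture. The small ATP5ME went from 81.2, 65.4 and 49.8 to 349.7, 260.5 and 231 CPM in HEK293. The c-subunit genes, which encode one ring protein from 3 loci, rose in each cell type. ATP5MC1, ATP5MC2 and ATP5MC3 had log2 fold changes of 1.78, 1.99 and 1.79 in HepG2 and 1.39, 1.31 and 1.21 in HEK293, and Atp5g1, Atp5g2 and Atp5g3 of 1.69, 1.54 and 1.16 in Neuro2a and 1.33, 1.00 and 1.03 in HippCulture. Atp5s, a synthase-associated protein, was among the lowest in Neuro2a (0.70, SE 0.21) and did not pass without UV-irradiated replicate 2 (adjusted p 0.0707). ATP5MGL, a single-exon copy, fell in HepG2 from 0.763, 0.705 and 0.881 to 0.155, 0.0378 and 0.0329 CPM (−3.28, SE 0.49, adjusted p 0.000262), with a log2 fold change of −4.38 without irradiated replicate 1. Both genes that fell in HepG2 passed the filter through their nonirradiated level, and neither was tested when at least 10 counts were asked of every sample. ATP5MGL and UQCRHL resemble other genes in sequence, and reads could be split between them.

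The members were short. Lengths of ORF, UTR and transcript are those of the annotated transcript with the longest ORF, and among equals the longest transcript. It need not be the main one expressed, and other choices were not tested. The ORF had a median of 457.5 bases over the members tested in HepG2 and 429 in Neuro2a, against 1404 for all protein-coding genes tested in either, and the 3′ UTR 241.5 and 154 bases against 1083 and 912. Across members, the log2 fold change fell with ORF length (Spearman's rho −0.56, −0.60, −0.57 and −0.56 over 88, 87, 86 and 84 members), given as a description, since the points share libraries. Over all protein-coding genes tested rho was −0.40, −0.41, −0.42 and −0.34. With transcript length in place of the ORF it was −0.43, −0.43, −0.59 and −0.55 across members. Over all protein-coding genes that value was −0.58, −0.61, −0.59 and −0.55. With 3′ UTR length rho was −0.13, −0.18, −0.34 and −0.38 across members, and −0.46, −0.48, −0.43 and −0.45 over all protein-coding genes. Members with an ORF over 1000 bases had medians of 1.20, 0.86, 1.31 and 0.93, and those at or under it 2.11, 1.70, 1.89 and 1.39. Among all protein-coding genes in the shortest quartile of transcript length, 78.1, 63.6, 67.8 and 61.6% rose with medians of 1.24, 0.90, 1.01 and 0.68. The members in that quartile had medians of 2.096, 1.69, 1.86 and 1.38, and 63 of 64, 63 of 64, 77 of 77 and 76 of 77 rose.

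**Figure D4:**
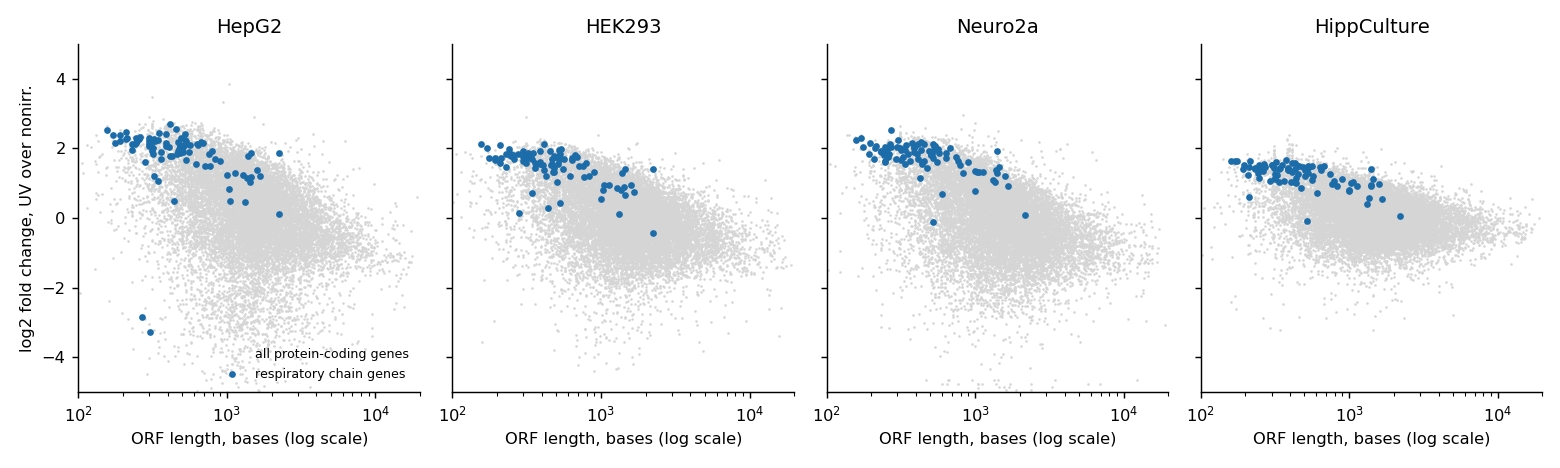
Log2 fold change, UV-irradiated over nonirradiated, against ORF length (log scale) for protein-coding genes tested (grey) and members (blue) in each cell type. Members sit at the short end, and their fold changes fall with ORF length (Spearman's rho −0.60 to −0.56). The axis is limited to −5 to 5.

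Other genes of the pathway were read beside the members. Of 6 genes for complex II, cytochrome c and cytochrome c1 (CYC1, a complex III subunit whose symbol lies outside the prefixes), 5, 5, 6 and 6 rose. SDHB, an iron-sulfur subunit, was at 1.78 (SE 0.11) and CYC1 at 1.30 in HepG2. SDHC, a membrane anchor, did not pass in the human lines (−0.50 in HepG2, −0.24 in HEK293). Assembly factors outside the member set rose in 30 of 36, 26 of 36, 25 of 35 and 22 of 35, and 2, 4, 6 and 3 fell. The factors that fell were LYRM7 (−1.68) and COX18 (−0.69) in HepG2, and COX20 (−1.77), LYRM7 (−1.35), COX15 (−0.59) and COX18 (−0.48) in HEK293. In Neuro2a they were Coa5 (−1.40), Cox20 (−0.89), Ttc19 (−0.85), Tmem186 (−0.85), Sco1 (−0.62) and Cox15 (−0.34), and in HippCulture Coa5 (−0.57), Cox15 (−0.34) and Ttc19 (−0.27). The largest changes in the list were SCO2 (2.20) in HepG2, COX14 (1.90) in HEK293 and Uqcc2 in Neuro2a (2.33) and HippCulture (1.73). Tricarboxylic acid cycle enzymes rose in 14 of 14, 9 of 14, 9 of 13 and 10 of 13, and Ogdh (−0.44) and Suclg2 (−0.25) fell in Neuro2a. The protein-coding genes of the mitochondrial genome rose in 11 of 13 in HepG2 and 4 of 13 in HEK293 (38.1% and 24.2% of all genes), and in 7 of 7 tested in each mouse cell type.

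The second question was whether the effect differed between cell types of one species. Between HepG2 and HEK293, 5 of 86 members had a greater log2 fold change in HepG2 and 1 a smaller one, against 3.1% and 4.85% of all genes tested for this interaction. NDUFA4L2 differed by 1.34 (SE 0.36, adjusted p 0.0357), NDUFAF4 by 1.14 (SE 0.31, adjusted p 0.0388) and ATP5F1D, the delta subunit of F1, by 0.75 (SE 0.15, adjusted p 0.00682). NDUFA4L2 shares exon bases with SHMT2, an enzyme gene of serine metabolism whose log2 fold changes were 1.35 in HepG2 and 0.80 in HEK293 at over 100 CPM, and reads there counted for both. The others were COX8A (0.59) and the assembly factor NDUFAF6 (0.58). ATP5IF1, which inhibits ATP hydrolysis, went the other way (−0.62, SE 0.17). With the replicate number as a block the counts were 28 and 2, and the share of all genes for that fit is not given here. Leaving out 1 sample gave 1 to 14 and 0 to 1. Library sizes alone gave 0 and 3 with a median of −0.11, against −0.34 over all genes. NDUFA4L2 did not pass without HepG2 nonirradiated replicate 3, HepG2 UV-irradiated replicate 1 or 3, HEK293 nonirradiated replicate 2 or 3, or HEK293 UV-irradiated replicate 2 (adjusted p 0.0623 to 0.0928). When 1 sample was left out, NDUFAF4 passed only without HepG2 nonirradiated replicate 2, HEK293 nonirradiated replicate 2 or HEK293 UV-irradiated replicate 1, and had an adjusted p of 0.0507 to 0.0947 without any of the 9 others.

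Between Neuro2a and HippCulture 58 of 82 members had a greater log2 fold change in Neuro2a and 0 a smaller one, where 8.39% and 16.1% of all genes did. Ndufb2 differed by 0.80 (1.97 against 1.16, SE 0.13), Cox7a2l by 0.78 (1.83 against 1.05, SE 0.16) and Ndufa3 by 0.73 (2.25 against 1.52, SE 0.16). The count of 58 was 27 with every gene of at least 1 count and 32 with a mean of 0.5 CPM over all samples. With library sizes alone the counts were 0 and 4 and the median turned from 0.50 to −0.14. Over all genes the median moved from −0.14 to −0.77. The sign against 0 thus depended on scaling, while the median over members lay above that over all genes with both.

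**Figure D5:**
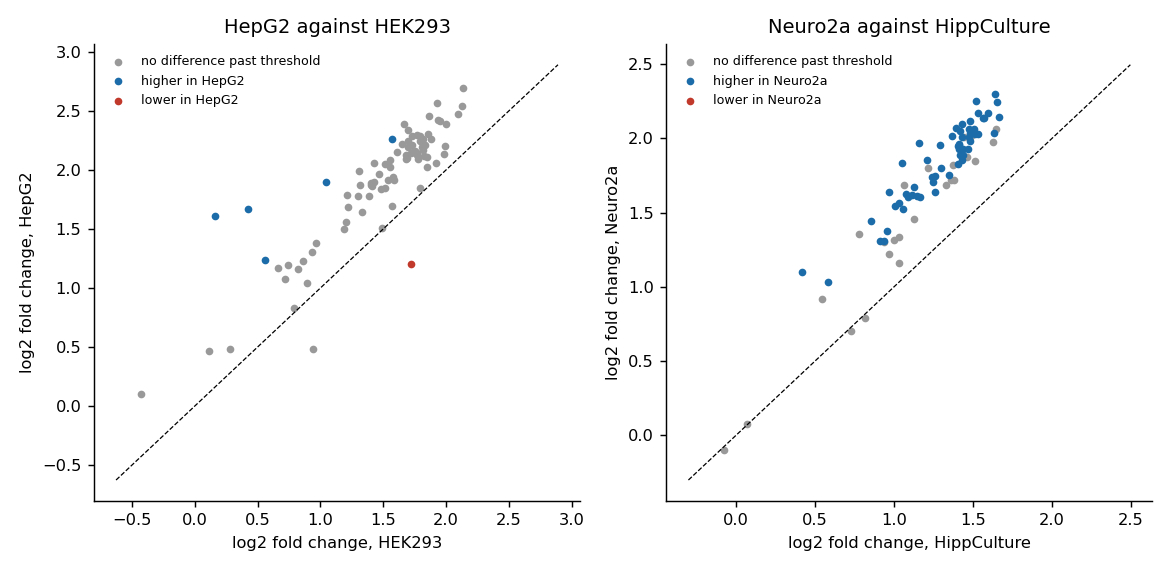
Log2 fold change of each member in HepG2 against HEK293 and in Neuro2a against HippCulture, coloured by the test of the difference, with the line of equality dashed. With TMM scaling most members lie above the line in both panels, with 58 of 82 past the threshold in mouse and 5 of 86 in human. With library sizes alone the medians turn to −0.14 and −0.11, where those over all genes are −0.77 and −0.34.

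The ranking of members was alike in separate cell types. Spearman's rho across members was 0.86 between HepG2 and HEK293 (86 genes), 0.92 between Neuro2a and HippCulture (82) and 0.70 to 0.74 between species (80 to 81), as a description.

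Levels in nonirradiated cells were also compared, on one TMM scale for each pair. In HepG2 14 of 89 members were higher and 56 lower than in HEK293, where 37.2% and 37.9% of all genes were. COX6B1 had 53.4, 63.6 and 62 CPM in HepG2 and 191, 216 and 172 CPM in HEK293 (−1.70, SE 0.14), and COX6B2 4.2, 2.69 and 3.25 against 0.187, 0.546 and 0.512 CPM (2.99, SE 0.39). UQCRHL was lower in HepG2 (−4.08, SE 0.29). It averaged under 0.5 CPM there, as COX6B2 did in HEK293, so each passed the filter through the line where it was higher. With library sizes alone the counts were 5 and 67. In Neuro2a 57 of 86 were higher and 9 lower than in HippCulture, where 39.3% and 41.3% of all genes were. Atp5g2 had 318, 362 and 317 CPM against 55.5, 62.3 and 65.2 CPM (2.45, SE 0.09) and Atp5b 2774, 2644 and 2555.5 CPM against 762, 794 and 809 CPM (1.75, SE 0.09). Cox4i2 had 5.95, 9.86 and 8.87 CPM against 0, 0.262 and 0 CPM in HippCulture, so that HippCulture replicate 2 alone sets its fold. Cox7a1 was higher by 4.88 (SE 0.35) and Ndufa4l2 by 5.51 (SE 0.39). Both averaged under 0.5 CPM in nonirradiated HippCulture and passed the filter through Neuro2a, so these folds rest on a level near the floor. Leaving out 1 sample gave 4.61 to 5.07 for Cox7a1 and 5.17 to 6.06 for Ndufa4l2. Cox7b2 had 663 counts over the 3 Neuro2a samples and 0 in HippCulture, which is at least 220-fold higher against a floor of 3 counts over the group. Cox6a1 was slightly lower in Neuro2a (−0.25, SE 0.08) and Cox7b did not pass (0.09, SE 0.08).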

How the data were processed

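The authors mapped reads with TopHat2 2.1.1 to hg38 or mm10 and deposited whole-number counts per gene, made with featureCounts (1.5.3 for HepG2, 1.6.1 for the others) on GENCODE 28 and M17, per the file headers. Reads over several genes counted for each, and no strand option was named. Names and the lengths of ORF, UTR and transcript came from GENCODE 44 and M21 (98.93% of human and 99.82% of mouse genes matched). The exon length used for levels per kilobase came with the deposited counts. Groups were tested in R 4.3.3 by edgeR 4.0.16 (TMM, quasi-likelihood, Benjamini-Hochberg over all genes tested, mean of at least 0.5 CPM in nonirradiated samples, or over all samples for levels), with DESeq2 1.42.0 as an alternative. SE is the log2 fold change divided by the root of F. CPM are scaled by TMM within a cell type. Code was tested on simulated data. The study calls replicates biological, while the labels only number them, and p-values measure the spread between these samples. Replicates differed by more than counting noise (chi-square per degree of freedom 3.01 to 112). Replicate 1 of nonirradiated HepG2 stood apart, with 112 and 83 against replicates 2 and 3, where that pair gave 3.01. Replicate 1 of irradiated HEK293 gave 36.9 and 43.3, where replicates 2 and 3 gave 4.17. Same-numbered samples deviated together in HEK293 (correlations 0.654, 0.368 and 0.461) and Neuro2a (0.291, 0.104 and 0.147). Named genes were the 3 highest and 3 lowest per cell type, all that fell, the highest per length in each complex, paralogous sets and the largest interactions. Members and lists were chosen with earlier results of these data known.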

Additional observations from a re-analysis of the deposited data

Results flagged for a closer look

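The UV effect was compared between cell types of one species. Between HepG2 and HEK293 the difference was tested as an interaction in edgeR, and it passed for 5 of 86 members with a greater effect in HepG2 and 1 with a smaller one, where 3.1% and 4.85% of all genes passed. NDUFA4L2 differed by 1.34, NDUFAF4 by 1.14 and ATP5F1D by 0.75 on the log2 scale. NDUFA4L2 had few reads, with 2.22 CPM on average in nonirradiated HepG2 samples, and shares exon bases with SHMT2. NDUFAF4 was lost when most single samples were left out, as given above. Of the members tested 5.81% and 1.16% passed in this fit without a block, which is not read as a trait of the set. With the replicate number as a block more members passed, as given above. Same-numbered samples deviated together in HEK293, and the share of all genes under the block is not given here. Leaving out 1 sample gave 1 to 14 higher and 0 to 1 lower, and the counts also changed with scaling.

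Between Neuro2a and HippCulture the difference passed for 58 of 82 members, all greater in Neuro2a with TMM scaling, where 8.39% of all genes were greater and 16.1% smaller. The count was 27 with every gene of at least 1 count and 32 with a mean of 0.5 CPM over all samples. Ndufb2 differed by 0.80, Cox7a2l by 0.78 and Ndufa3 by 0.73. Neuron and astrocyte markers differed between these cell types too, and their part in this result was not tested.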

How the results depend on the processing

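With library sizes alone the median log2 fold change over members was 0.73, 0.84, 0.63 and 0.79 in HepG2, HEK293, Neuro2a and HippCulture. Over all genes it was −1.38, −0.84, −1.32 and −0.59. The members lower were 9, 3, 4 and 2. The differences turned to −0.11 (human; 0 higher, 3 lower) and −0.14 (mouse; 0 and 4), and the levels to −1.04 (5 higher) and 0.69 (5 lower). Over all genes the medians with this scaling were −0.34 and −0.77 for the differences and −0.45 and 0.12 for the levels. For the UV effects and the differences, the median over members lay above that over all genes with either scaling. The cause of the shift was not tested. Single genes that turned were COX7A2L (−0.23 in HepG2, −0.045 in HEK293), NDUFS1 (−1.20 in HepG2, −1.11 in Neuro2a, −0.48 in HippCulture), NDUFA5 (−0.48 in HEK293), NDUFAF7 (−0.64 in HEK293, −0.14 in HippCulture), Atp5g3 (−0.029), Atp5s (−0.49) and Atp5a1 (−0.013). At least 10 counts in every sample gave 0 lower and a median of 1.78 in HepG2, 1.70 in Neuro2a, 0.44 for mouse levels, and 1 higher for the human difference. Every gene with at least 1 count gave 1.75 in Neuro2a, 3 and 2 for the human and 27 for the mouse difference. A mean of 0.5 CPM over all samples gave 9 and 32 (median 0.38), and is the main filter for levels. DESeq2 gave 11 and 2 for the human difference, and leaving out the mitochondrial genome and the 10 most counted genes 3.

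Members sharing no exon base were fewer, with 39 higher and 1 lower of 40, 38 and 0 of 40, 55 of 56 and 53 of 55 for UV, 2 of 39 and 34 of 53 for the differences, and 8 and 28 of 41 and 37 of 56 for levels. The replicate block gave 28 and 2 for the human difference let NDUFA5 and NDUFAF4 pass in HEK293, and moved no other count by over 1.5 times. Same-numbered samples did not pair in HepG2 (correlations −0.01, 0.01 and −0.02) or HippCulture (0.14, 0.07 and 0.06). Leaving out 1 sample gave 85 to 85, 82 to 83, 83 to 84 and 79 to 81 higher and 2 to 2, 0 to 1, 0 to 0 and 0 to 0 lower, with medians of 1.87 to 2.07, 1.48 to 1.76, 1.78 to 1.86 and 1.27 to 1.41. The differences ranged from 1 to 14 higher and 0 to 1 lower (0.20 to 0.43) and from 44 to 62 higher (0.43 to 0.57), the levels from 10 to 19 higher and 50 to 56 lower (−0.69 to −0.49) and from 54 to 57 and 9 to 13 (0.49 to 0.54). Of 1746 results of named genes under alternatives, 1676 kept the call, and the direction where either fit passed. A change of sign with neither fit past the threshold was not counted as a change. Depth limits members under about 0.5 CPM.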
